A study of Mus musculus with 9 samples.

Results

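The genes of the mitochondrial respiratory chain were examined in RNA of cDC1, or type 1 conventional dendritic cells, which are known for presenting antigen taken up from other cells to CD8 T cells. Members were chosen by symbol alone: protein-coding genes whose names begin with Ndufa, Ndufb, Ndufc, Ndufs or Ndufv (complex I, without the Ndufaf assembly factors), Sdha to Sdhd (complex II), Uqcr (complex III), Cox4 to Cox8 (complex IV) and Atp5 (complex V), plus the 13 protein genes of mitochondrial DNA. This gave 99 genes of 53458 in all, 86 of them nuclear and 13 mitochondrial. Complex I had 38 nuclear and 7 mitochondrial genes, complex II had 4 and none, complex III had 8 and 1, complex IV had 18 and 3, and complex V had 18 and 2. The nuclear genes lie on 19 chromosomes. The cells came from mouse lymph nodes beside the pancreas, in 9 libraries with 3 for each group: Healthy nodes, nodes draining a pancreas with PanIN (intraepithelial neoplasia, a lesion that precedes carcinoma) and nodes draining a Tumor. KPC, the model named in the title, is known as a mouse line that develops pancreatic carcinoma through a pancreas-directed Cre. The sources used here do not give alleles or age, or whether a library came from 1 animal or a pool, so a p-value speaks only of the spread among these 9 libraries, which may be technical.

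The respiratory chain sits in the inner mitochondrial membrane. Complex I takes electrons from NADH and complex II from succinate, complex III passes them to cytochrome c, and complex IV gives them to oxygen. The proton gradient built by complexes I, III and IV drives complex V, the ATP synthase. Complexes I, III, IV and V need subunits from both genomes, which are read by different polymerases and translated on different ribosomes, whereas complex II is wholly nuclear. Dendritic cells use this chain while resting and are known to lean more on glycolysis once activated.

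Mouse nuclear DNA carries copies of mitochondrial genes, and these sequences are shown because they limit how far a mitochondrial gene's value can be trusted. The first 60 bases of mt-Nd3, a complex I subunit, and of its chromosome 1 pseudogene Gm28438 are given 5′ to 3′ from the GENCODE M21 transcripts, with the differing base in capitals.

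mt-Nd3: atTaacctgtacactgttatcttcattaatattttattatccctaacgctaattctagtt

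Gm28438: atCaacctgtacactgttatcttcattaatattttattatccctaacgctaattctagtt

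Over the 345 bases compared, the pair had 1 difference, T3C, counted from the first base of mt-Nd3 with its base written first. The pseudogenes Gm10925 (for mt-Atp6, 678 bases), Gm28661 (mt-Co2, 681 bases), Gm28437 (mt-Co3, 783 bases) and Gm10222 (mt-Nd4l, 294 bases) had 0 differences from their mitochondrial genes. Neighbouring mitochondrial genes can also overlap, as in the single messenger RNA that carries mt-Atp8 and mt-Atp6, both complex V subunits. Bases 142 to 224 from the start of mt-Atp8 follow, with the 43 bases shared by the 2 genes in capitals.

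mt-Atp8 to mt-Atp6: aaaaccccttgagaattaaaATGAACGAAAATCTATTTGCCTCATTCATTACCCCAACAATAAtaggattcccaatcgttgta

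Reads within the capitals belong to both genes, so the quantifier had to divide them by a model. mt-Nd4l and mt-Nd4 overlap by 7 bases in the same way.

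Libraries held 32150281 to 68934430 estimated counts. Genes defining cDC1 were present in each library, and the 10 markers summed to 4180 to 15200 CPM (counts scaled to library size) in Healthy, 5260 to 10700 in PanIN and 4450 to 8760 in Tumor. Healthy 2 stood apart, with the highest cDC1 sum and the lowest level of the maturation genes Ccr7 (57.2 CPM) and Fscn1 (145 CPM). Healthy 3 stood apart as well, with the lowest cDC1 sum and the highest sum of the 6 cDC2 markers (158 CPM), and it was the highest library for more of all genes than any other library and the lowest for 21.7%. The 7 B cell markers summed to 33.8 to 34.5 CPM in Healthy, 30.9 to 281 in PanIN (highest in PanIN 2) and 33.6 to 75.3 in Tumor, and none was at 0 in all libraries. Tumor 1 had the highest sums of the plasma cell (335 CPM), T and NK cell (280 CPM), erythroid (235 CPM) and acinar and epithelial (64.5 CPM) markers. In bulk RNA, fewer cells of a type and less RNA per cell cannot be told apart.

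Levels were first compared between genes in TPM, which divides counts by transcript length. The 13 mitochondrial genes held 80.0% ± 4.03 (SD over 9 libraries) of the summed TPM of all members, from 73.0% to 86.4%. mt-Atp8 had the highest mean, 17900 TPM, on a transcript of 204 bases that shares the overlap shown above. Its first place rests on division by that short length, and its value also enters the 80.0% share. Without division by length, its median over libraries was 320.6 CPM, against 3949 CPM for mt-Atp6 on the same messenger RNA. In TPM, mt-Atp8 was followed by mt-Co2 (7351 TPM), mt-Atp6 (6617 TPM), mt-Co3 (5598 TPM) and mt-Co1 (4367 TPM). The mt-Co genes encode the catalytic core of complex IV, where oxygen is reduced. The range over libraries of mt-Atp8 (10890 to 26610 TPM) lay wholly above that of mt-Co2 (5220 to 9354 TPM), which overlapped that of mt-Atp6 (4679 to 9142 TPM). mt-Co1 (3323 to 6122 TPM) lay wholly above the next gene in this order, mt-Nd4l (1587 to 3247 TPM), and the other neighbours among the 13 overlapped. Complex I genes came lower, from mt-Nd4l at 2223 TPM to mt-Nd3 at 582 TPM and mt-Nd5 at 576 TPM, and mt-Cytb, the cytochrome b of complex III, stood at 1826 TPM.

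Among nuclear genes the highest mean levels belonged to Cox6b1 (646 TPM), a complex IV subunit on the intermembrane side, and Atp5b (620 TPM), the catalytic beta subunit of the ATP synthase. Atp5j (512 TPM), Cox4i1 (465 TPM), Atp5e (440 TPM), Ndufa3 (413 TPM), Cox5b (404 TPM) and Cox7b (360 TPM) came next. The ranges of Cox6b1 (469 to 832 TPM) and Atp5b (483 to 737 TPM) overlapped. In complex II, Sdha, the flavoprotein that oxidises succinate, stood at 350 TPM, against 90.8 TPM for Sdhc, 55.7 TPM for Sdhd and 45.6 TPM for Sdhb, which sit in the same complex in equal number. This gap rests in part on transcript length: the main transcript (that with the highest TPM) of Sdha had 239 bases and that of Sdhc 298, against 1142 for Sdhb and 1231 for Sdhd. Without division by length, the medians over libraries were 214.5 CPM for Sdha, 89.7 for Sdhd, 70.1 for Sdhb and 56.0 for Sdhc. Complex III was led by Uqcrh (279 TPM), Uqcrq (162 TPM), Uqcrb (150 TPM) and Uqcr10 (136 TPM), and complex I after Ndufa3 by Ndufa10 (238 TPM), Ndufa4 (232 TPM) and Ndufb8 (205 TPM). Ndufa4 is counted in complex I by its name, although it is now known as a complex IV subunit. Cox7a2l (a factor that joins complexes into supercomplexes) and Atp5s (not a core synthase subunit) are likewise members by name.

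Several complex IV subunits exist as paralogs that replace each other between tissues, and the cDC1 libraries held the widely expressed form of each. Cox4i1, Cox6a1, Cox6b1, Cox7a2, Cox7b and Cox8a were abundant in each library. Their counterparts known from muscle, lung or testis were near 0. Cox6a2 ranged from 0.0525 to 0.817 CPM, Cox7a1 from 0.413 to 1.402 CPM and Cox6b2 from 0.886 to 3.02 CPM. Cox4i2 reached 0.417 CPM at most, Cox8b 0.183 CPM and Cox7b2 0.0291 CPM, and Cox8c had no count in any library. Ndufa4l2, a hypoxia-linked relative of Ndufa4, was highest in Tumor 1 at 1.62 CPM and had no count in 6 libraries. The 3 genes for the identical c-ring subunit of complex V were all present, with Atp5g2 and Atp5g3 above Atp5g1 in each library on the TPM scale.

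**Figure D1:**
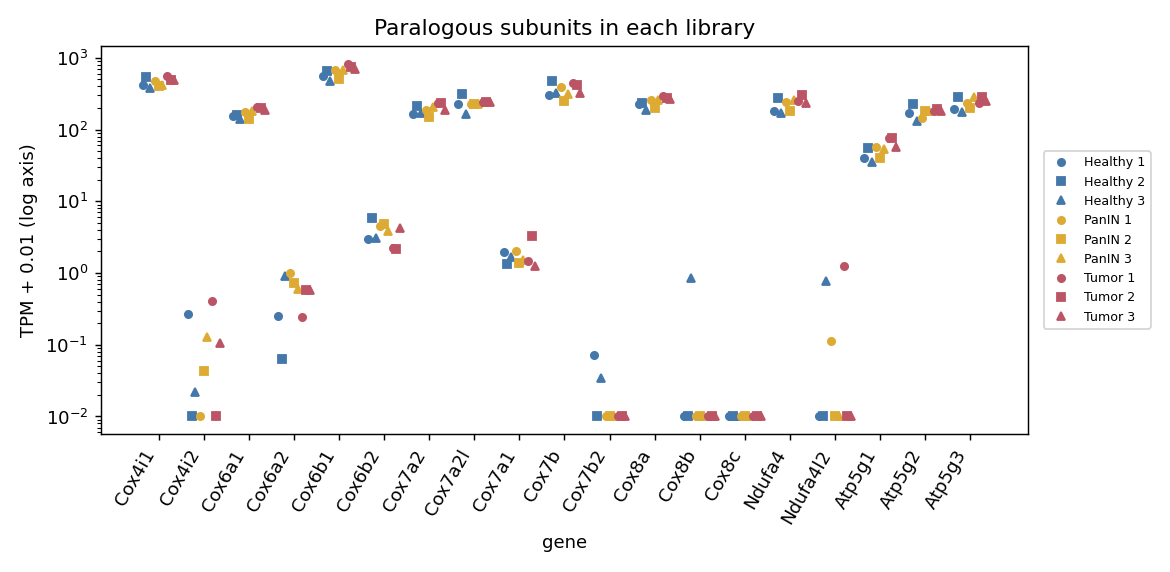
Deposited TPM plus 0.01 (log axis) of paralogous subunits, 1 point per library, coloured by stage with marker shape for the library number. Cox4i1, Cox6a1, Cox6b1, Cox7a2, Cox7b and Cox8a lie far above Cox4i2, Cox6a2, Cox6b2, Cox7a1, Cox7b2, Cox8b and Cox8c.

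For tests between stages, 94 members (81 nuclear and 13 mitochondrial) passed the filter on low counts; Ndufa4l2, Cox4i2, Cox7b2, Cox8b and Cox8c did not. Levels of 1 gene across libraries are given in CPM with TMM factors, and fold changes come from edgeR's quasi-likelihood fit across all 24133 genes that passed. No member was called at an adjusted p of 0.05 in any of the 3 comparisons or in the test of any difference among stages. Over all genes the share called was 0.0% in PanIN against Healthy, 0.0249% in Tumor against Healthy, 0.0124% in Tumor against PanIN and 0.0207% for any difference. At an unadjusted p under 0.05, 2 members lay lower in PanIN than in Healthy, 10 lay higher in Tumor than in Healthy and 31 lay higher in Tumor than in PanIN, with 13 of 94 in the test of any difference, a share close to the 13.4% of all genes. DESeq2 called 1 member in Tumor against Healthy, where it called 1462 of 36574 genes. In the same comparison limma-voom with sample weights called 7 members, where it called 1986 of all 24133 genes. The sample weights of limma-voom were 4.32 for Healthy 1, 0.172 for Healthy 2 and 0.269 for Healthy 3, so its calls against Healthy rest mostly on 1 Healthy library. The comparisons share libraries, so their values are set side by side and are not separate evidence.

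The nuclear members shared their extremes by library. Relative to each gene's own mean over the 9 libraries on the log2 scale, the nuclear median was 0.47 in Healthy 2, 0.42 in Tumor 2 and 0.33 in Tumor 1, and it was -0.44 in PanIN 2. Healthy 2 was the highest library for 40 of the 81 nuclear members, against 19.6% of all genes, and PanIN 2 the lowest for 49, against 6.32% of all genes. The mitochondrial genes had other extremes. Tumor 2 was highest for 10 of 13, against 7.31% of all genes, and PanIN 3 was lowest for 12 of 13, against 7.91% of all genes. Healthy 2, highest for the nuclear genes, had a mitochondrial median of -0.14, and PanIN 2, lowest for the nuclear genes, had 0.09.

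**Figure D2:**
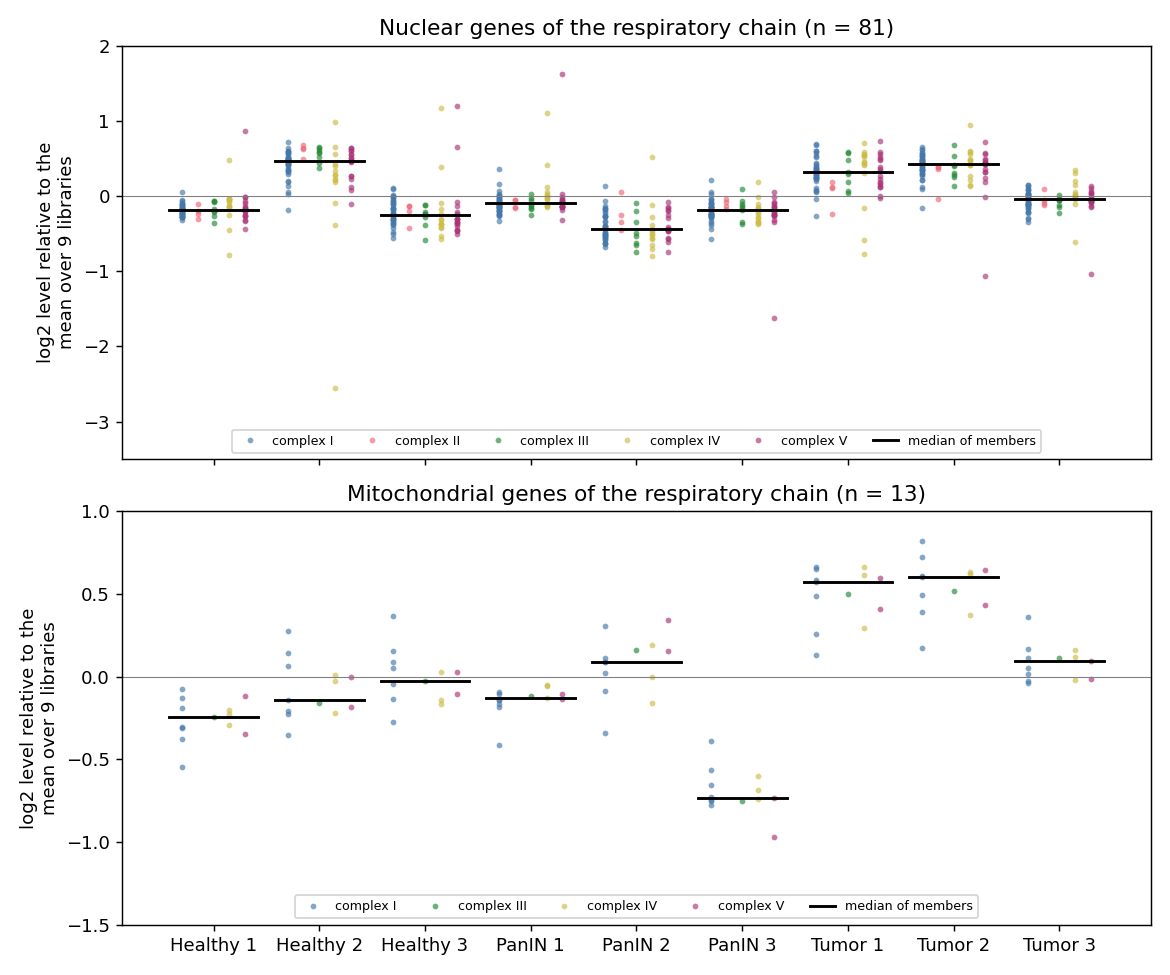
Level of each member in each library relative to its own mean over 9 libraries (log2 of CPM plus 0.01), nuclear genes above and mitochondrial genes below, coloured by complex, with the median as a bar. Nuclear medians run from -0.44 in PanIN 2 to 0.47 in Healthy 2, and mitochondrial medians from -0.73 in PanIN 3 to 0.61 in Tumor 2.

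Tumor against PanIN gave the most even picture: 90 of the 94 members had a positive fold change (45.8% of all genes did), with a median log2 of 0.47 for nuclear and 0.66 for mitochondrial members and -0.05 for all genes. In 55 members all 3 Tumor libraries lay above all 3 PanIN libraries, which was so for 8.33% of all genes, and in none did they lie below (7.26%). The unadjusted count of 31 higher stood beside 2.02% of all genes, and that of 0 lower beside 2.52%. Nuclear medians by complex were 0.47 in complex I, 0.34 in II, 0.48 in III, 0.55 in IV and 0.48 in V. By limma-trend on log2(TPM + 0.1), which changes the tool and the length division and carries no TMM factor, the all-gene median moved to -0.34, the nuclear median to 0.16 and the mitochondrial to 0.25, so members stayed above the all-gene median while their own values shrank. Markers of other cell types moved in this comparison in both directions. Positive were 5 of 5 tested erythroid (median log2 1.38), 5 of 6 plasma cell (0.83), 6 of 6 cDC2 (0.21) and 6 of 8 T and NK cell markers (0.24). None was positive among the 7 B cell (-1.58) and 6 tested neutrophil markers (-2.16). Single libraries weighed on some of these medians. The erythroid sum was 235 CPM in Tumor 1 but 30.4 and 34.8 CPM in Tumor 2 and 3, beside 46.1, 32.4 and 36.1 CPM in PanIN. The B cell sum was 281 CPM in PanIN 2 but 53.5 and 30.9 CPM in PanIN 1 and 3. The part of these markers in the members' values was not tested.

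mt-Nd3 (chrM:9459-9806 in GRCm38, plus strand) had the smallest p of this comparison. Its level was 77.8, 81.7 and 79.2 CPM in PanIN 1 to 3 and 145, 158 and 133 CPM in Tumor 1 to 3, with 70.9, 126 and 100.5 CPM in Healthy. The Tumor and PanIN groups did not overlap, and the log2 fold change was 0.87 (SE 0.23; edgeR unadjusted p = 0.00268, adjusted p = 1.0). Its near-identical copy Gm28438 took 56.7% of the counts of the pair, so the division between them is uncertain.

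Atp5g1 (chr11:96068852-96075670, minus strand) encodes one of the c-ring precursors through which protons turn the synthase. It stood at 39.2, 27.3 and 32.3 CPM in PanIN and 66.9, 66.0 and 39.3 CPM in Tumor. The lowest Tumor library lay just above the highest PanIN library, and the log2 fold change was 0.80 (SE 0.28; edgeR adjusted p = 1.0). Atp5g2 and Atp5g3, which make the same mature protein, had 0.46 (SE 0.25) and 0.47 (SE 0.28).

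Ndufv2 (chr17:66078638-66101559, minus strand), an iron-sulfur subunit at the NADH end of complex I, stood at 107, 84.5 and 78.7 CPM in PanIN and 161, 149 and 118 CPM in Tumor. These groups did not overlap, and the log2 fold change was 0.66 (SE 0.23; edgeR adjusted p = 1.0). Its neighbour in the same module, Ndufv3, had 0.62 (SE 0.21), again with the groups apart. Ndufv1, the third subunit there, which binds NADH, had 0.12 (SE 0.22) with overlapping groups.

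The 4 members with negative values in this comparison were Ndufs1 (-0.12, SE 0.21), the largest iron-sulfur subunit of complex I, Sdha (-0.11, SE 0.25), the muscle form Cox6a2 (-0.47, SE 1.04) and 1 of the 2 gene models named Atp5o (-1.06, SE 0.75). That model, ENSMUSG00000116933, spans chr16:91684398-91926982, shares 51.4% of its 31-base words with Donson and 42.6% with the main Atp5o gene, and ranged from 0.498 to 4.81 CPM. The main Atp5o gene, a stalk subunit of the synthase, had 0.50 (SE 0.25).

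In Tumor against Healthy the mitochondrial genes had larger fold changes than the nuclear ones, a difference that was not tested. The median log2 was 0.55 for the 13 mitochondrial genes, 0.19 for the 81 nuclear members and -0.11 for all genes, and 81 of 94 members were positive (43.5% of all genes). All 3 Tumor libraries lay above all 3 Healthy libraries in 8 of 13 mitochondrial and 4 of 81 nuclear members. Over all genes this was so for 9.02%, so the nuclear count did not exceed the background. In no member did all Tumor libraries lie below all Healthy libraries (9.06% of all genes). The 10 members higher at an unadjusted p under 0.05 stood beside 6.82% of all genes, and the 0 lower beside 11.0%. The nuclear median depended on single libraries: it was 0.08 without Healthy 3, 0.09 without Healthy 1, 0.10 without Tumor 2 and 0.34 without Tumor 3. Without Healthy 2 it was 0.46, and edgeR called 4 members (Ndufa3, Atp5l, mt-Nd3 and mt-Nd6) where it called 2177 of all 25589 genes. Markers of other cell types moved in both directions. Positive were 6 of 6 plasma cell (median log2 1.91), 7 of 7 B cell (1.04), 5 of 6 tested neutrophil (2.07) and 4 of 5 tested erythroid markers (0.76). The T and NK cell (0.49) and tested acinar and epithelial markers (0.745) were each positive in 6 of 8. Fewer were positive among macrophage and monocyte (0 of 7, -0.39), stroma (1 of 6, -0.61), cDC2 (2 of 6, -0.25) and plasmacytoid dendritic cell markers (2 of 5, -0.30). The part of all these in the members' values was not tested.

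mt-Nd6 (chrM:13552-14070, minus strand), the single protein gene on the other strand of mitochondrial DNA, had the smallest p. It stood at 414, 458.5 and 444 CPM in Healthy, 499, 506 and 362.5 CPM in PanIN and 843, 949 and 602 CPM in Tumor. Each Tumor library was above each Healthy and PanIN library, with a log2 fold change over Healthy of 0.86 (SE 0.26; edgeR unadjusted p = 0.00606, adjusted p = 0.168). Its adjusted p was 0.0313 by DESeq2, 0.0243 by limma-voom (with the weights given above) and 0.0485 by edgeR without Healthy 2. mt-Nd6 overlaps mt-Nd5 on the opposite strand, and the sources used here do not say whether the quantifier used the strand; mt-Nd5 itself had 0.19 (SE 0.29).

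mt-Nd1, a membrane subunit of complex I, stood at 1394, 1496 and 1569 CPM in Healthy and 2729, 2853 and 1790 CPM in Tumor. The groups were apart, and the log2 fold change was 0.73 (SE 0.30; edgeR adjusted p = 0.236). mt-Co2, which receives electrons from cytochrome c, stood at 3843, 4041 and 4267 CPM in Healthy and 7440, 7250 and 5257 CPM in Tumor. Here too the groups were apart, with 0.72 (SE 0.32; edgeR adjusted p = 0.276). Tumor 3 was the lowest Tumor library in both genes.

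The other mitochondrial genes ranged widely against Healthy. mt-Atp6 had 0.67 (SE 0.33), mt-Nd4 0.60 (SE 0.31), mt-Co3 0.58 (SE 0.32), mt-Nd3 0.55 (SE 0.23), mt-Cytb 0.53 (SE 0.31), mt-Nd2 0.46 (SE 0.30), mt-Atp8 0.32 (SE 0.31) and mt-Co1 0.32 (SE 0.34). mt-Nd4l had -0.04 (SE 0.27), turning to 0.12 by limma-voom. These genes are cut from the same long precursor. Each SE is that of 1 gene's own fold change across libraries, and the gaps between genes were not tested. The mitochondrial ribosomal RNAs had another order over libraries: mt-Rnr1 stood at 3690, 1890 and 7560 CPM in Healthy, 3060, 1720 and 1430 CPM in PanIN and 2600, 2280 and 1810 CPM in Tumor, highest in Healthy 3.

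**Figure D3:**
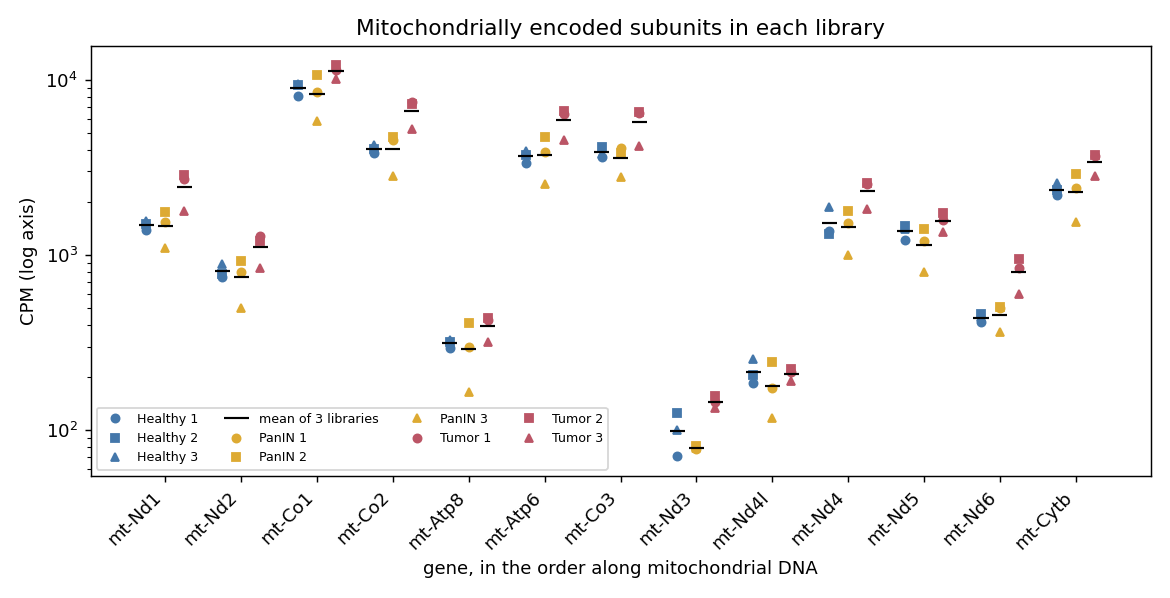
CPM (log axis) of the 13 mitochondrial protein genes in each library, in their order along mitochondrial DNA, coloured by stage, with bars for the mean of 3 libraries. The 3 Tumor points lie above the 3 Healthy points in mt-Nd1, mt-Co1, mt-Co2, mt-Atp6, mt-Co3, mt-Nd3, mt-Nd6 and mt-Cytb, and PanIN 3 is lowest in 12 of the 13 genes.

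Of the 81 nuclear members tested, 4 had all Tumor libraries above all Healthy libraries, a smaller share than the 9.02% of all genes. Cox5a (chr9:57521274-57532426, plus strand), a matrix-side subunit of complex IV, stood at 139, 134 and 99.0 CPM in Healthy, 155, 104 and 112 CPM in PanIN and 233, 191 and 163 CPM in Tumor. Its log2 fold change over Healthy was 0.66 (SE 0.25; edgeR adjusted p = 0.198). Ndufa11 (chr17:56717767-56722141, plus strand), a membrane subunit of complex I, stood at 23.3, 29.6 and 22.5 CPM in Healthy and 46.9, 41.5 and 31.03 CPM in Tumor. Its log2 fold change was 0.66 (SE 0.25; edgeR adjusted p = 0.195). Ndufv2 had 0.58 (SE 0.23) and Atp5k, the synthase subunit e, 0.50 (SE 0.22).

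A fixed list of 16 nuclear core subunits had a median near 0 against Healthy. Among them were Ndufs1, Ndufv1 and Ndufv2 of complex I, Sdha to Sdhd, Uqcrc1 and Uqcrfs1 of complex III, and Atp5a1 and Atp5b. Their median log2 was -0.02 in Tumor against Healthy, with 8 of the 16 positive. The other 65 nuclear members had 0.22, 61 of them positive. Against PanIN the medians were 0.29 and 0.51. These are descriptions with no test of the difference between the lists. Sdha stood at 208, 346 and 203 CPM in Healthy, 214.5, 231 and 216 CPM in PanIN and 189, 217 and 208 CPM in Tumor. Healthy 2 alone was high, and the log2 fold change against Healthy was -0.30 (SE 0.25) and -0.00 without Healthy 2. Among other negative values against Healthy, the low-count Atp5o model had -1.35 (SE 0.76), Atp5s -0.22 (SE 0.38) and Ndufs1 -0.15 (SE 0.21), and the last 2 turned positive without Healthy 3 (Atp5s, 0.06) or Healthy 2 (Ndufs1, 0.01). Atp5b, at 730, 1247 and 744 CPM in Healthy and 816, 967 and 780 CPM in Tumor, had -0.09 (SE 0.27), with the same library high.

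PanIN against Healthy gave negative fold changes for 89 of 94 members, and 42.5% of all genes were positive. The median log2 was -0.27 for nuclear and -0.11 for mitochondrial members, beside -0.10 for all genes. This direction did not hold throughout. By limma-trend on log2(TPM + 0.1) the nuclear median was 0.10 and the mitochondrial 0.17, where the all-gene median was 0.23. Without Healthy 2 the nuclear median was -0.00, and without PanIN 3 the mitochondrial median was 0.13; limma-voom gave 0.12 for the mitochondrial genes. The other scalings run in edgeR (library totals, RLE factors and scaling on nuclear genes) kept both medians negative. All PanIN libraries lay below all Healthy libraries in 4 of 94 members, a share not above the 4.81% of all genes, and above in none (7.4%). These 4 were Ndufb2, Ndufb6, Ndufs5 and Ndufv3 of complex I, which held 37 of the 81 nuclear members tested. The unadjusted count of 2 lower stood beside 5.65% of all genes, and that of 0 higher beside 4.82%, so neither exceeded the background. The B cell (7 of 7, median log2 3.05), tested neutrophil (6 of 6, 3.41) and plasma cell markers (6 of 6, 0.68) were positive here. Few were positive among tested erythroid (0 of 5, -0.56), stroma (1 of 6, -0.795), cDC2 (1 of 6, -0.43) and macrophage and monocyte markers (2 of 7, -0.43). The T and NK cell (4 of 8, 0.07), tested acinar and epithelial (5 of 8, 0.33) and plasmacytoid dendritic cell markers (3 of 5, 0.21) were mixed. The part of all these was not tested.

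Ndufs5 (chr4:123712710-123718202, minus strand), an accessory subunit on the intermembrane side of complex I, stood at 26.8, 45.03 and 26.8 CPM in Healthy, 25.03, 18.5 and 22.0 CPM in PanIN and 36.0, 39.4 and 28.6 CPM in Tumor. PanIN lay below both other groups. Its log2 fold change against Healthy was -0.59 (SE 0.26; edgeR adjusted p = 0.466), and -0.29 without Healthy 2. Ndufb2 had -0.55 (SE 0.24), Ndufb6 -0.41 (SE 0.25) and Ndufa8 -0.38 (SE 0.23). Cox6a2 (0.64, SE 1.03), mt-Nd6 (0.05, SE 0.26), mt-Atp6 (0.02, SE 0.33), Ndufab1 (0.01, SE 0.24) and Ndufb4 (0.01, SE 0.36) were the 5 with positive values. Ndufb4 is uncertain, because its processed pseudogene Ndufb4c, which shares 38.3% of its words, held 9675 counts over the 9 libraries against 2200 for Ndufb4.

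**Figure D4:**
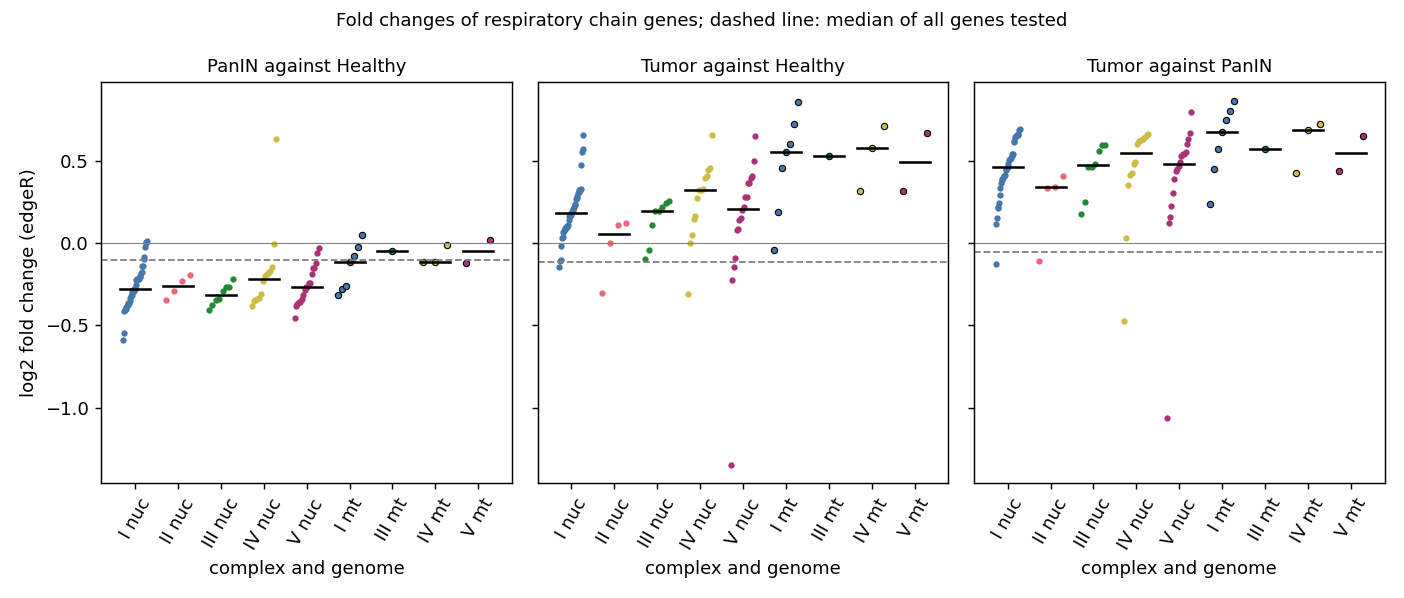
edgeR log2 fold change of each tested member by complex and genome (nuc, nuclear; mt, mitochondrial, ringed) in the 3 comparisons, with black bars for medians and a dashed line for the median of all 24133 genes. In Tumor against PanIN 90 of 94 points are above 0, and in PanIN against Healthy 89 are below.

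The ratio of mitochondrial to nuclear counts, which needs no scaling between libraries, spread more within the Healthy and PanIN groups than between stages. Over all complexes it was 3.87, 2.76 and 4.79 for Healthy 1 to 3, 4.12, 5.53 and 2.90 for PanIN 1 to 3 and 4.82, 4.69 and 4.54 for Tumor 1 to 3. The means were 3.81 ± 1.02, 4.18 ± 1.32 and 4.68 ± 0.14 (SD, n = 3 each). The 3 Tumor libraries were close together and lay inside the PanIN range. Complex IV had the highest ratio (10.6 ± 2.76, 11.6 ± 3.80 and 11.6 ± 0.57 in the 3 stages) and complex V the lowest (1.35 ± 0.38, 1.56 ± 0.53 and 1.87 ± 0.16). In complex V each Tumor library exceeded each Healthy library, but Tumor 3 (1.71) lay just above Healthy 3 (1.69). In complexes I, III and IV and over all complexes the Tumor and Healthy ranges overlapped. The low ratio of Healthy 2 came with its high nuclear sum (10830 CPM, beside 6143 to 9898 in the other libraries), and the low ratio of PanIN 3 with its low mitochondrial sum (19670 CPM, beside 26820 to 46470 in the other libraries).

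**Figure D5:**
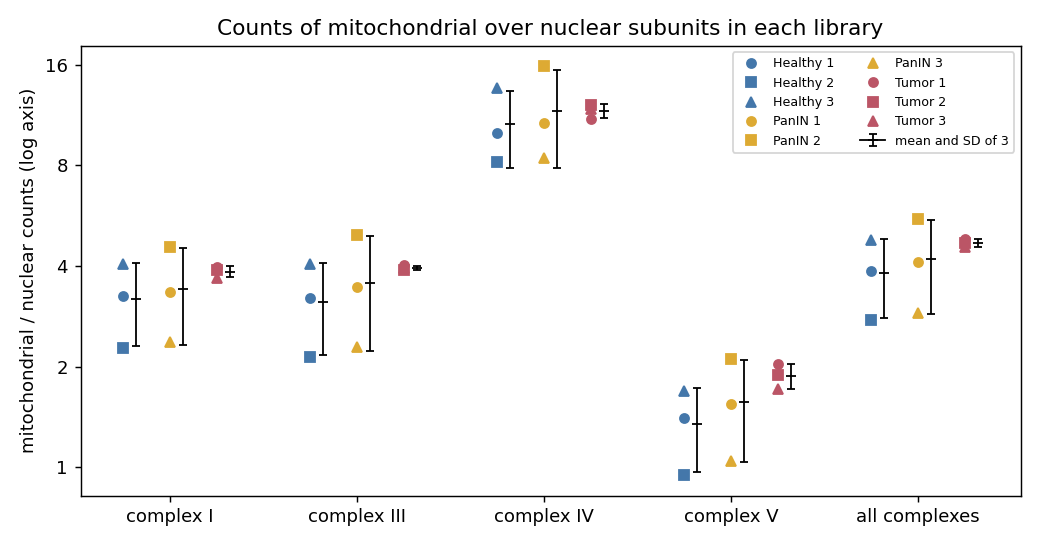
Summed counts of mitochondrial over nuclear members (log axis) by complex and library, coloured by stage, with mean and SD of 3 libraries in black; complex II has no mitochondrial subunit. The 3 Tumor libraries lie between 4.54 and 4.82 over all complexes, inside the PanIN range of 2.90 to 5.53.

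Because 7 of the 13 mitochondrial genes share at least 20% of their 31-base words with nuclear genes, the counts given to the copies were examined. Gm29216, with 29.6% of the words of mt-Co1, held 22.7% of all counts of the pair. Its level was 2000, 1900 and 2080 CPM in Healthy and 5300, 4690 and 3350 CPM in Tumor. Gm28439, with 62.8% of the words of mt-Nd4, held 5.89% of all counts of that pair. It had no count in Tumor 1 and Tumor 2. These shares are over whole genes, so the division within the shared stretches alone is not known here. Among the copies without a difference, Gm28661, Gm28437 and Gm10222 had no count in any library. Gm10925 held 2.42% of all counts of its pair with mt-Atp6, and ranged from 31.3 CPM in PanIN 3 to 224 CPM in Tumor 3. With each mitochondrial gene summed with its copies, the mitochondrial medians were -0.10 in PanIN against Healthy, 0.53 in Tumor against Healthy and 0.58 in Tumor against PanIN, and no member was called by edgeR.

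Most nuclear members are short, so their fold changes were set beside other coding genes of like length. Of the nuclear members, 27 had a main transcript of up to 441 bases, 27 of up to 645 bases and 27 longer. In Tumor against PanIN their medians were 0.48, 0.53 and 0.43, against -0.03, 0.04 and -0.06 for the other coding genes of those classes. In Tumor against Healthy they were 0.22, 0.25 and 0.12, against -0.06, 0.01 and -0.10.

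One library of each stage shares a code in its title (Healthy 1, PanIN 1 and Tumor 1), and what the code stands for is not stated. On log2(CPM + 0.01), the Tumor minus PanIN median of the nuclear members was 0.43 between the 2 libraries with the shared code and 0.50 among the other 6 libraries. For the mitochondrial genes it was 0.67 and 0.66. Tumor minus Healthy differed more, with nuclear medians of 0.49 and 0.08 and mitochondrial medians of 0.84 and 0.41. PanIN minus Healthy changed sign, with nuclear medians of 0.07 and -0.39 and mitochondrial medians of 0.13 and -0.26.

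Other mitochondrial genes were taken from 9 lists by function, and edgeR called 0 of the 232 genes tested in the 3 comparisons. At an unadjusted p under 0.05, 17 lay higher and 1 lower in Tumor against PanIN, beside 2.02% and 2.52% of all genes. In Tumor against Healthy 12 lay higher and 5 lower, beside 6.82% and 11.0%, both shares below those of all genes, and in PanIN against Healthy 1 lay each way, beside 4.82% and 5.65%. Mitochondrial ribosomal proteins, which translate the 13 mitochondrial genes, ran close to the nuclear members: 77 of 78 were positive in Tumor against PanIN (median log2 0.36), 62 in Tumor against Healthy (0.20) and 12 in PanIN against Healthy (-0.18). Among them Mrps7 stood at 54.8, 52.8 and 39.3 CPM in Healthy and 86.1, 73.6 and 75.5 CPM in Tumor, with 0.68 (SE 0.20; edgeR adjusted p = 0.168). Mrpl53 had 1.02 (SE 0.28) and Mrps25 0.50 (SE 0.22) in that comparison. Carriers and import proteins were positive in 20 of 25 in Tumor against PanIN (0.35), among them the ADP/ATP carrier Slc25a4 (0.47, SE 0.23), the outer membrane channel Vdac3 (0.35, SE 0.20) and the import receptor Tomm20 (0.38, SE 0.22).

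Genes of the tricarboxylic acid cycle and pyruvate dehydrogenase, whose enzymes feed electrons to the chain, were positive in 12 of 18 in Tumor against PanIN (median log2 0.06), in 5 of 18 in Tumor against Healthy (-0.10) and in 2 of 18 in PanIN against Healthy (-0.20). Pdha1, a subunit of pyruvate dehydrogenase, stood at 56.1, 85.3 and 65.5 CPM in Healthy and 47.1, 53.7 and 40.1 CPM in Tumor, with -0.55 (SE 0.22; edgeR adjusted p = 0.219) and no overlap. Suclg2, a subunit of succinyl-CoA ligase, had -0.50 (SE 0.29). Cytochrome c and coenzyme Q genes were positive in 9 of 13 in Tumor against both PanIN (0.14) and Healthy (0.09). Against PanIN, cytochrome c itself, Cycs, had 0.73 (SE 0.27) and Coq8a had -0.35 (SE 0.30). Cyc1, a complex III subunit that the choice by symbol left out of the members, had 0.41 (SE 0.21) against PanIN.

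Assembly factors were mixed. Those of complex I were positive in 8 of the 15 found, in both Tumor against PanIN (median log2 0.03) and Tumor against Healthy (0.02), with Ndufaf3 at 0.58 (SE 0.25), Foxred1 at -0.02 (SE 0.23) and Tmem126b at -0.03 (SE 0.24) against PanIN. Those of complexes II to V were positive in 25 of 34 (0.23) and 19 of 34 (0.13). Cmc2, which takes part in complex IV assembly, stood at 35, 15 and 19.8 CPM in Healthy and 84.6, 51.5 and 55.4 CPM in Tumor, with 1.45 (SE 0.36; edgeR adjusted p = 0.168). Lyrm7, which helps insert the iron-sulfur protein of complex III, stood at 1.28, 0.997 and 3.29 CPM in Healthy and 0.313, 0.309 and 0.390 CPM in Tumor, with -2.46 (SE 0.72; edgeR adjusted p = 0.168). The groups were apart in both genes. Sdhaf2, which attaches the flavin to Sdha, had 0.64 (SE 0.23).

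Genes that keep and read mitochondrial DNA were positive in 9 of 18 in Tumor against PanIN (median log2 0.01), in 12 against Healthy (0.09) and in 10 of 18 in PanIN against Healthy (0.04). Mterf3, a regulator of mitochondrial transcription, had 0.71 (SE 0.25) in PanIN against Healthy, Primpol 0.47 (SE 0.24) and Rrm2b -0.37 (SE 0.24). Genes for mitochondrial RNA processing were positive in 6 of 17 against PanIN (-0.02) and 9 of 17 against Healthy (0.08). Lrpprc and Slirp, which form a complex that stabilises mitochondrial messenger RNA, had opposite signs in Tumor against Healthy, -0.73 (SE 0.26) and 0.59 (SE 0.26), and Fastk had 0.45 (SE 0.22). Of 14 regulators, 9 were positive against Healthy (0.26) and 8 against PanIN (0.07). Ppargc1a, a coactivator of mitochondrial biogenesis, stood at 8.17, 3.49 and 15.8 CPM in Healthy and 3.15, 2.92 and 3.39 CPM in Tumor, with -1.54 (SE 0.51; edgeR adjusted p = 0.17) and no overlap. Nfe2l2 had 0.81 (SE 0.27) and Esrra 0.54 (SE 0.20).

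Nuclear respiratory genes are known for shared promoter elements of the factors NRF1, GABPA (an ETS factor) and YY1. RefSeq promoter windows (GRCm38.p6, 250 bases before to 50 after the start) were found for 67 of 85 nuclear symbols, giving 72 windows, and were searched on both strands. The palindromic NRF1 motif, written out in capitals in Atp5k, was in 6.94% of member windows (exact 95% interval 2.29% to 15.5%), against 0.971% of all 32851 windows. The looser NRF1 motif, with 1 free position and written out as the middle match in Cox6a1, can overlap the first and was in 13.9% (6.87% to 24.1%) against 2.44%. CCGGAAG (ETS) was in 22.2% (13.3% to 33.6%) against 8.86%, and the YY1 motif in 6.94% against 0.852%. Over windows of coding genes that passed the filter the shares were 1.7%, 4.23%, 14.4% and 1.58%, nearer to the members and for ETS inside their interval. In all, 28 genes had at least 1 of the motifs and 6 had at least 2, with the 2 NRF1 forms counted as separate motifs.

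The 250 bases before the start are shown for Cox6a1 (chr5:115348959-115349208, minus strand), which holds 3 of the motifs, and Atp5k (chr5:108434400-108434649, minus strand), 1 of the genes apart in Tumor against Healthy, with motif matches in capitals.

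Cox6a1: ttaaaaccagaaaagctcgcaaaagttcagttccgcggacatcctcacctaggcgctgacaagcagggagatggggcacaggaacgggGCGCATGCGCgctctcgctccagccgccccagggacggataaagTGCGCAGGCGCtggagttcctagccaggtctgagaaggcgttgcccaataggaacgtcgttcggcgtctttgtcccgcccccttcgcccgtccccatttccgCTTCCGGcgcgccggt

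Atp5k: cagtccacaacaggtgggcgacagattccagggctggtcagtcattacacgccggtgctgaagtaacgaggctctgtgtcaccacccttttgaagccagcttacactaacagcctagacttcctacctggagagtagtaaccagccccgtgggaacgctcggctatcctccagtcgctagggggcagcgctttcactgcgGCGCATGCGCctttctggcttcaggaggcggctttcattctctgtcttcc

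In Cox6a1 the matches begin 162, 118 and 16 bases before the start, the last being CCGGAAG read on the other strand. In Atp5k the match shown begins 50 bases before it. A CCGGAAG match of Atp5k lies after the start, within the window searched but outside the bases shown. Cox6a1, a complex IV subunit, stood at 115, 145 and 103 CPM in Healthy, 127, 89.9 and 102 CPM in PanIN and 185, 187 and 127 CPM in Tumor, with 0.46 (SE 0.24) against Healthy and 0.65 (SE 0.24) against PanIN. Atp5k stood at 33.6, 43.9 and 32.9 CPM in Healthy, 38.9, 29.3 and 37.8 CPM in PanIN and 56.9, 54.5 and 44.5 CPM in Tumor, so its lowest Tumor library was only just above Healthy 2. A match describes letters in the window and says nothing of binding in these cells.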

How the data were processed

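For each transcript the deposited tables hold estimated counts, which are not normalized, and TPM, which the authors' quantifier scaled by length and library. Libraries were made with a strand-keeping kit, per the labels' protocols. The submitters' processing notes name Salmon and mm10, while names of the deposited tables mention sailfish; the tool is therefore unsettled, and its version and settings are not known here.

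Of 136288 transcripts, 136176 matched GENCODE M21 (GRCm38) and were summed to 53458 genes; counts were rounded. Genes passing filterByExpr (minimum count 10, minimum total 15) numbered 24133 and were fitted with edgeR 4.0.16 (R 4.3.3, TMM, quasi-likelihood, stage as the only term, all 9 libraries), with Benjamini-Hochberg adjustment over all of them and a threshold of 0.05. SE is the absolute log2 fold change over the square root of F. The script was tested on simulated data. Members and lists were chosen with earlier results of these data known. Named genes were the mitochondrial genes, the 4 nuclear genes per complex highest in TPM, the 4 members with the smallest p and the 3 largest non-overlapping folds per direction and comparison, fixed isoforms and core subunits, and up to 3 genes per list; some genes this rule covers are not reported here. Alternatives used DESeq2 1.42.0 and limma 3.58.1, and other scalings, filters and libraries. Figures were drawn with matplotlib 3.10.9.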

Additional observations from a re-analysis of the deposited data

How the results depend on the processing

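Across the alternatives tried, 141 of 153 values of counts, medians and shares, and 97 of 99 with a library left out, moved by less than the spread between libraries (medians and mitochondrial share), stayed within 1.5 times the count, or stayed within the interval (motif shares). Small medians can change sign within that spread: in PanIN against Healthy the mitochondrial median, -0.111, was 0.169 on both TPM scales, 0.124 by limma-voom and 0.0584 without Healthy 2 and Healthy 3, and with a library left out it ranged from -0.258 to 0.131 and the nuclear median from -0.373 to -0.00347. In Tumor against Healthy the nuclear median then ranged from 0.0792 to 0.464. For named genes, 696 of 718 values and 418 of 432 with a library left out kept sign and call. Members called in Tumor against Healthy numbered 1 by DESeq2 and 7 by limma-voom, and 0 to 4 with a library left out; for any difference among stages these were 1, 21, and 0 to 1 (1 without Healthy 2), where DESeq2 called 926 of 36555 genes, limma-voom 3248 of 24133 and edgeR, without Healthy 2, called 1360 of 25589. In Tumor against Healthy DESeq2 called 1462 of 36574 genes, and edgeR, without Healthy 2, called 2177 of 25589. The nuclear median in PanIN against Healthy was 0.102 on log2(TPM + 0.1) and 0.101 on log2(TPM + 1); in Tumor against PanIN the nuclear median was 0.163 and 0.15 and the mitochondrial 0.254 on both. In the first 200 bases of the promoter windows CCGGAAG was in 6.94% and the YY1 motif in 1.39%, against 3.98% and 0.265% of all windows.

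Small fold changes changed sign. In PanIN against Healthy, mt-Nd6 had -0.0131 with counts rebuilt from TPM; Ndufab1 had -0.0114 by DESeq2, -0.0121 with RLE factors, -0.098 with rebuilt counts and -0.0122 with no filter; mt-Atp6 had -0.00845 by DESeq2, -0.00909 with RLE factors, -0.000847 summed with its copy and -0.01 with no filter. In Tumor against Healthy, Ndufs1 had 0.0614 by limma-voom and 0.0802 without Healthy 2 and Healthy 3, Atp5s 0.00595 without those, and mt-Nd4l 0.122 and 0.165; mt-Nd4l in Tumor against PanIN had -0.0339 on both TPM scales. The cause was not tested. With a library left out, ranges were -0.0239 to 0.197 (mt-Nd6), -0.123 to 0.113 (Ndufab1) and -0.189 to 0.232 (mt-Atp6) in PanIN against Healthy, -0.275 to 0.00937 (Ndufs1), -0.36 to 0.0649 (Atp5s) and -0.129 to 0.111 (mt-Nd4l) in Tumor against Healthy, and -1.57 to 0.187 for the Atp5o model in Tumor against PanIN. Medians in Tumor against PanIN ranged from 0.375 to 0.623 (nuclear) and 0.446 to 0.81 (mitochondrial). Summing copies, leaving out Healthy 2 and Healthy 3, and rebuilding counts were chosen after seeing the data. No paired analysis was possible because the labels carry no replicate numbers and the title code joins just 1 library of each stage, leaving the other 6 unpaired; a fit with a term for that code gave nuclear medians at -0.269, 0.195 and 0.469. The 5 members that were not tested reached 1.62 CPM at most, and nothing is read from their values.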
